A study of Homo sapiens with 9 samples.

Results

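The genes of non-muscle myosin II contractility were followed in ES-2 cells, an established line derived from an ovarian carcinoma. They were chosen by name: the heavy chains MYH9 and MYH10, the essential light chain MYL6, the regulatory light chains MYL9, MYL12A and MYL12B, the kinases MYLK, ROCK1 and ROCK2, and the phosphatase subunit PPP1R12A. All 10 are listed among the 58174 genes of the deposited tables, and 9 of them had reads in any library. Cells were transfected with a control siRNA (siC), with siRNAs against the RNA-binding protein IGF2BP1 (siIGF2BP1) or with siRNAs against the transcription factor SRF (siSRF), and were harvested after 72 h. There were 3 libraries per condition, made from total RNA after removal of ribosomal RNA. The line carries no allele or transgene named in the labels, each knockdown was made with pools of siRNAs in this 1 cell line, and nothing states whether the libraries of a condition came from separate cultures, so p-values measure the spread between these libraries, which may be technical. Comparing each knockdown with siC asks whether the mRNAs of the contractile machinery change upon depletion of IGF2BP1 or SRF. Comparing the knockdowns with each other asks where these changes differ.

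Non-muscle myosin II is a motor built from paired heavy chains, which hydrolyse ATP and pull on actin filaments, together with essential light chains that stabilise the lever arm and regulatory light chains that switch the motor on. The switch is a phosphorylation of the regulatory light chain. MYLK adds it when calcium and calmodulin are bound, ROCK1 and ROCK2 add it downstream of RHOA and related GTPases, and the myosin phosphatase, whose targeting subunit is encoded by PPP1R12A, takes it off; ROCK also inhibits that phosphatase. The same GTPase pathway assembles actin filaments, which releases the MRTF co-factors of SRF, and SRF binds a short DNA element, the CArG box, in many genes of the cytoskeleton.

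The paralogs among the members bear on what short reads can separate, and the regulatory light chains show this best. The first 90 coding bases of the MANE Select transcripts (GENCODE, GRCh38) are shown because they hold the codons of the neighbouring threonine and serine that MYLK and ROCK phosphorylate, which are in capitals.
MYL9: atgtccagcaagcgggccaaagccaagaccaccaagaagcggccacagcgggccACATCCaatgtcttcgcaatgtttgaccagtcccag
MYL12A: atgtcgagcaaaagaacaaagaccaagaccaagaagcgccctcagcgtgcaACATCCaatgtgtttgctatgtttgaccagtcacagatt
MYL12B: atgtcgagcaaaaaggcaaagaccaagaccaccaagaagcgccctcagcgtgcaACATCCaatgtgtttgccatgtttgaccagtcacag
The site codons stand at coding bases 55 to 60 in MYL9 and MYL12B and at 52 to 57 in MYL12A. Over the aligned coding sequence, MYL12A and MYL12B had 95.71% of bases in common. MYL9 had 79.34% in common with MYL12A and 80.81% with MYL12B. The heavy chains MYH9 and MYH10 had 73.44% of aligned coding bases in common, and ROCK1 and ROCK2 had 66.83%. Of all stretches of 50 bases in the whole mRNA, 12.21% of those of MYL12A, 10.14% of those of MYL12B, 14.45% of those of ROCK1 and 6.22% of those of MYL6 also occurred in another gene. Reads from such stretches could have been divided between genes or lost, so the levels of these 4 members are less certain than those of MYH10, PPP1R12A and MYL9, for which no such stretch was found.

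Each library had 6421764 to 9416175 reads on genes (median 7377934). The targeted mRNAs fell with their siRNAs. IGF2BP1 was at 12.77, 13.49 and 12.11 FPKM (fragments per kilobase of gene length, scaled to library depth) in siC and at 4.18, 4.14 and 4.02 FPKM in siIGF2BP1. SRF was at 13.55, 14.08 and 15.99 FPKM in siC, at 1.63, 1.36 and 1.42 FPKM in siSRF, and at 5.80, 5.42 and 6.80 FPKM in siIGF2BP1. SRF mRNA was therefore lowered in both knockdowns, to 41.3% of siC in siIGF2BP1 and to 10.1% in siSRF, whereas IGF2BP1 in siSRF, at 111.2% of siC, did not pass the test (limma adjusted p = 0.118). The label of an ovarian line was set against marker genes. The ovarian and epithelial markers PAX8, WT1, EPCAM and CDH1 were at most at 0.262 FPKM and MUC16 had no reads. Thus 2 of the 7 on that list, KRT8 and KRT18, were present. The list summed to 50.9 to 55.1 FPKM in siC, 47.6 to 61.4 in siIGF2BP1 and 87.7 to 94.3 in siSRF. Most of that sum was KRT18, at 41.8 to 45.7 FPKM in siC and 77.9 to 84.7 in siSRF. All 3 mesenchymal markers, VIM, FN1 and CDH2, were present. They summed to 1080 to 1100 FPKM in siC, 884 to 965 in siIGF2BP1 and 870 to 919 in siSRF. Most of that sum was VIM, at 1050 to 1060 FPKM in siC, so it does not stand for the whole list. VIM and FN1 lay below all siC libraries in both knockdowns, whereas CDH2 lay above all siC libraries in both. Leukocyte markers summed to at most 0.126 FPKM and muscle markers to at most 0.0839 FPKM. Of the 3 endothelial markers CDH5 was present, with PECAM1 and VWF below 1 FPKM, and the list summed to 8.38 to 11 FPKM in siC, 14.5 to 16.4 in siIGF2BP1 and 7.71 to 8.49 in siSRF. The part of these shifts in the results below was not tested. In bulk RNA, fewer cells of a type and less RNA per cell cannot be told apart.

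MYL12B and MYH9 were the most abundant members in control cells, and ROCK1 and PPP1R12A the least abundant of those detected. MYL12B, a regulatory light chain encoded on the plus strand of chromosome 18 (3261479 to 3278461, GRCh38), was at 134.2 FPKM ± 1.56 (SD, n = 3) in siC. MYH9, the heavy chain of myosin IIA on the minus strand of chromosome 22 (36281280 to 36388010), was at 127.5 FPKM ± 5.72, and its libraries lay below those of MYL12B. MYL6, the essential light chain on chromosome 12 (plus strand, 56158346 to 56163496), and MYL12A, on chromosome 18 just upstream of MYL12B (plus strand, 3247481 to 3256236), followed at 68.5 FPKM ± 3.53 and 62.8 FPKM ± 3.81, with overlapping libraries. The next 3 levels lay close together. MYH10, the heavy chain of myosin IIB on chromosome 17 (minus strand, 8474207 to 8631376), and MYLK, the calmodulin-dependent kinase of the light chain on chromosome 3 (minus strand, 123610049 to 123884332), were both at 14.69 FPKM (SD 1.02 and 0.225), and ROCK2, on chromosome 2 (minus strand, 11179759 to 11348330), was at 13.95 FPKM ± 0.362. The libraries of MYH10 overlapped those of MYLK and ROCK2, whereas those of MYLK lay above those of ROCK2. PPP1R12A, on chromosome 12 (minus strand, 79773563 to 79935460), was at 10.33 FPKM ± 0.627 and ROCK1, on chromosome 18 (minus strand, 20944612 to 21111813), at 9.58 FPKM ± 1.22, with overlapping libraries.

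This order rests on the gene lengths the authors used. Those lengths join all exons of a gene, so that a gene with many alternative exons is divided by more bases than its main mRNA has. For MYL6 the deposited length was 4609 bases against 708 bases for the MANE Select mRNA, and for MYH9 8959 against 7451 bases. Rescaled to the MANE Select length, which was chosen after the values were seen, MYL6 was the most abundant member at 446.0 FPKM ± 23.0, followed by MYL12A at 212.6, MYL12B at 203.2 and MYH9 at 153.4 FPKM. The order of the less abundant members also shifted, with MYLK at 32.2, PPP1R12A at 21.7, MYH10 at 17.2, ROCK2 at 16.95 and ROCK1 at 11.3 FPKM. The regulatory light chains and MYL6 thus stood above the heavy chains only on the second scale as a group. That scale keeps reads on exons outside the MANE Select mRNA, so it can overstate the level of that mRNA. Differences between conditions are the same on both scales, because a gene has the same length in every library.

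**Figure D1:**
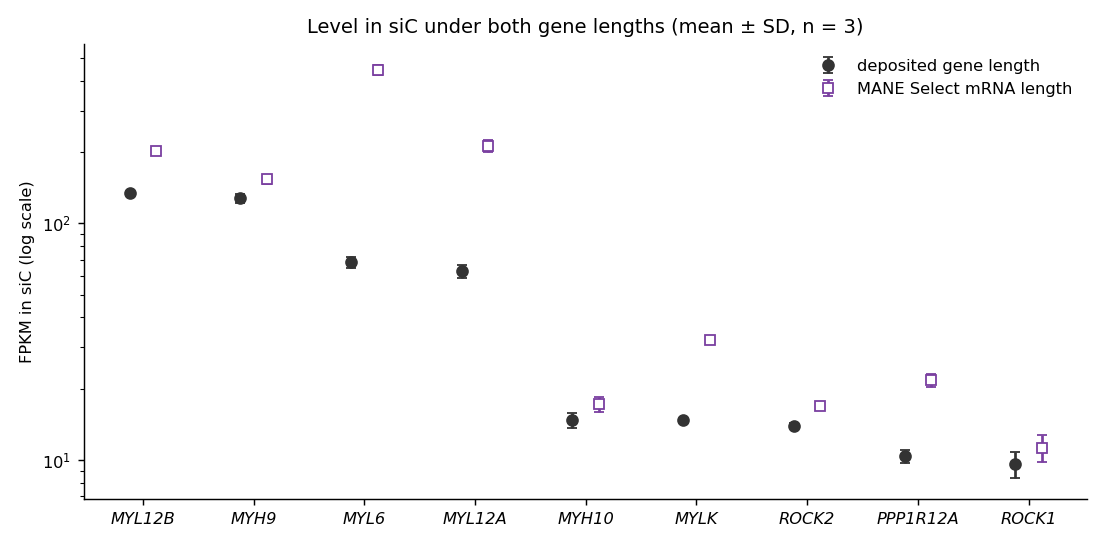
FPKM in the siC libraries on a log axis for the 9 detected members, with mean and SD of 3 libraries, under the deposited gene length (filled circles) and the length of the MANE Select mRNA (open squares). MYL6 moves from 68.5 to 446.0 FPKM and from the third to the first place, while MYH9, MYH10 and the ROCK genes move little. The open squares keep reads on exons outside the MANE Select mRNA.

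MYL9, the regulatory light chain that is typical of smooth muscle, was the member without a measurement. It lies on the plus strand of chromosome 20 (36541497 to 36551447) and had 0 reads in each of the 9 libraries. A count of 0 allows up to 3 reads, which correspond to 0.117 to 0.161 FPKM per library, for counting error only. It shared this with 4237 of the 19799 protein-coding genes, or 21.4%. No exon of another annotated gene overlaps it, and no stretch of 50 bases of its mRNA occurs elsewhere. Whether the 0 stems from the cells or from the annotation the reads were counted on was not tested. MYL9 thus formed 0% of the summed FPKM of MYL9, MYL12A and MYL12B in siC, siIGF2BP1 and siSRF alike, and no test of that share was possible. MYL5, a regulatory light chain that is no member, had reads in all 9 libraries and averaged 0.865 FPKM in siC, 0.85 in siIGF2BP1 and 0.602 in siSRF.

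**Figure D2:**
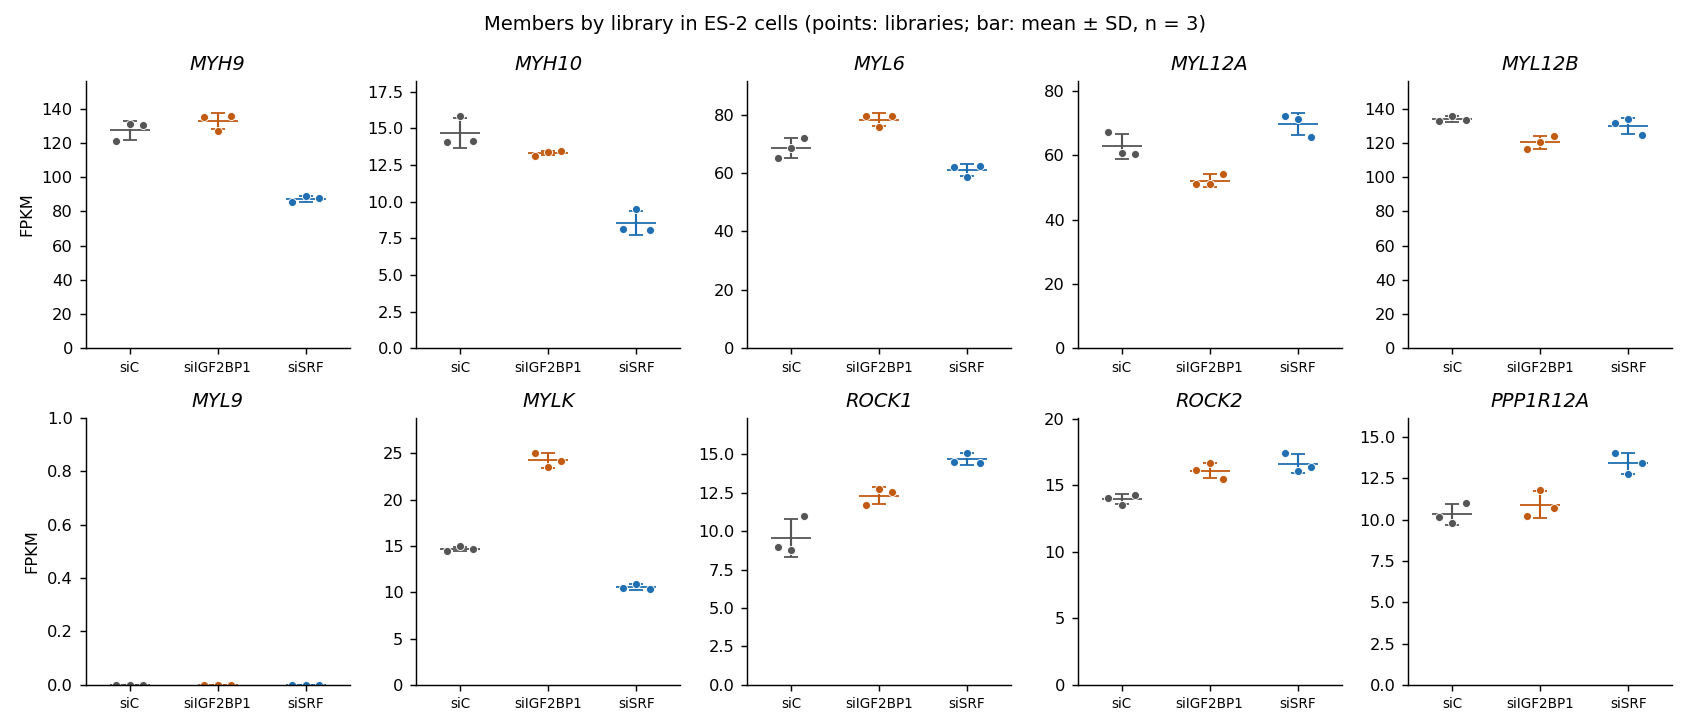
FPKM of the 10 members in the 9 libraries, 1 panel per gene with its own linear axis from 0; points are libraries and bars the mean and SD of 3 libraries. MYLK is highest in siIGF2BP1 and lowest in siSRF without overlap, MYH9 and MYH10 are lowest in siSRF, ROCK1 is lowest in siC, and MYL9 is at 0 throughout.

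Upon IGF2BP1 depletion 1 member, MYLK, was called higher, and no member was called lower. Differences between conditions were fitted with limma-trend on log2(FPKM + 0.1), which understates changes of low genes, over all genes that averaged 0.1 FPKM or more in the 6 libraries compared, and genes with a Benjamini-Hochberg adjusted p of at most 0.01 were called. Over all 22292 genes tested, 3.57% were called lower and 3.55% higher, and among those that averaged 5 FPKM or more, where the 9 detected members all lie, 16.6% were called in either direction. The 1 of 9 members called is thus near the background of genes of such levels. The libraries of siIGF2BP1 and siC did not overlap for 7 of the 9 members, 3 lower and 4 higher, against 35.6% of all genes tested. That share covers genes down to 0.1 FPKM, as do the shares given below for overlap and for limma-voom. None of these was taken at 5 FPKM or more, so they are no background matched to the levels of the members. The median log2 fold change was 0.08 over the 9 members and 0.02 over all genes.

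MYLK was at 14.50, 14.94 and 14.63 FPKM in siC and at 25.08, 23.51 and 24.16 FPKM in siIGF2BP1. Every siIGF2BP1 library lay far above every siC library, and the spread within each group was small. The difference was 0.72 on the log2 scale (95% confidence interval 0.61 to 0.83, limma adjusted p = 0.000496), or 1.65-fold. Between 2122 and 4537 reads per library stood behind these values. With trends along GC content and length removed from each library, the log2 difference was 0.59 (limma adjusted p = 0.000689). MYLK encodes long and short kinases and, from an internal start, the kinase-free protein telokin, and the values do not separate these products. An antisense transcript, MYLK-AS1, overlaps 612 exonic bases and was itself at 0.56 to 1.39 FPKM. The paper names a directional library kit, but whether counting used strand is not given in the sources used here.

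The other kinases were also higher in siIGF2BP1 but did not pass the test. ROCK1 was at 8.98, 8.77 and 10.99 FPKM in siC and at 11.69, 12.73 and 12.55 FPKM in siIGF2BP1, a log2 difference of 0.37 (0.13 to 0.61, limma adjusted p = 0.0542). ROCK2 was at 14.03, 13.55 and 14.26 FPKM in siC and at 16.15, 16.66 and 15.49 FPKM in siIGF2BP1, a log2 difference of 0.21 (0.08 to 0.33, limma adjusted p = 0.0433). For both kinases all siIGF2BP1 libraries lay above all siC libraries, and the third siC library of ROCK1 stood apart from the others of its group. The phosphatase subunit PPP1R12A overlapped between the groups, with a log2 difference of 0.08 (-0.11 to 0.27, limma adjusted p = 0.568).

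The light chains moved by small steps in different directions, none of which passed the test. MYL12A was at 67.16, 60.77 and 60.38 FPKM in siC and at 50.96, 51.07 and 54.32 FPKM in siIGF2BP1 (log2 difference -0.27, limma adjusted p = 0.0254). MYL12B was at 133.1, 136.0 and 133.4 FPKM in siC and at 116.7, 120.7 and 124.2 FPKM in siIGF2BP1 (log2 difference -0.16, limma adjusted p = 0.0489). MYL6 was at 64.97, 68.55 and 72.03 FPKM in siC and at 79.54, 75.70 and 79.46 FPKM in siIGF2BP1 (log2 difference 0.19, limma adjusted p = 0.0526). An antisense gene, SMARCC2, overlaps 719 exonic bases of MYL6 and was at 8.55 to 13.9 FPKM. Whether the counting kept SMARCC2 reads there apart from those of MYL6 is not known, since its use of strand is not given. The regulatory light chains were thus lower and the essential light chain higher in every siIGF2BP1 library. Of the heavy chains, MYH9 overlapped between the groups (log2 difference 0.06, -0.07 to 0.18, limma adjusted p = 0.51), and MYH10 was at 14.05, 15.86 and 14.15 FPKM in siC and at 13.14, 13.40 and 13.44 FPKM in siIGF2BP1 (log2 difference -0.14, -0.29 to 0.01, limma adjusted p = 0.209). On the reads recovered from the FPKM values, limma-voom called 3 members, adding MYL12A (adjusted p = 0.00229) and ROCK1 (adjusted p = 0.000448) to MYLK, against 17.1% of all genes. With trends along GC content and length removed from each library, MYL6 passed as well (log2 difference 0.25, limma adjusted p = 0.00909), ROCK2 was at 0.09 and PPP1R12A changed sign, to -0.08, without passing.

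SRF depletion gave 3 members called lower, MYH9, MYH10 and MYLK, and 1 called higher, ROCK1. Of all 21857 genes tested, 5.34% were called lower and 6.85% higher, and of those that averaged 5 FPKM or more 28.2% were called in either direction. Of the 9 detected members, 4 were called. The libraries of siSRF and siC did not overlap for 7 members, 4 lower and 3 higher, against 39.9% of all genes tested. The median log2 fold change was -0.04 over the 9 members and 0.01 over all genes.

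Both heavy chains fell. MYH9 was at 121.0, 131.3 and 130.4 FPKM in siC and at 85.65, 88.94 and 88.08 FPKM in siSRF. MYH10 was at 14.05, 15.86 and 14.15 FPKM in siC and at 8.12, 9.52 and 8.08 FPKM in siSRF. All siSRF libraries of both genes lay well below all siC libraries. The log2 difference was -0.54 for MYH9 (-0.65 to -0.43, limma adjusted p = 0.00079), to 68.65% of siC, and -0.77 for MYH10 (-0.98 to -0.56, limma adjusted p = 0.00208), to 58.39% of siC. With trends along GC content and length removed together, the MYH9 difference was -0.32 (limma adjusted p = 0.00161), while MYH10 stayed at -0.78. The call of MYH10 was lost without the first siSRF library (limma adjusted p = 0.0121) or without the third (0.0107).

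MYLK went in the opposite direction to that seen upon IGF2BP1 depletion. It was at 10.43, 10.88 and 10.35 FPKM in siSRF, below all siC libraries, with a log2 difference of -0.47 (-0.59 to -0.36, limma adjusted p = 0.00134), to 71.86% of siC. Removal of the GC and length trends left a log2 difference of -0.34 (limma adjusted p = 0.00472). ROCK1 rose to 14.50, 15.12 and 14.41 FPKM, above all siC libraries. Its log2 difference was 0.62 (0.39 to 0.85, limma adjusted p = 0.00552), or 1.53-fold. That call was lost when any siC library but the third, or any siSRF library, was left out (limma adjusted p between 0.0182 and 0.0294), and with the GC and length trends removed (log2 difference 0.48, limma adjusted p = 0.0142). ROCK1 shares 13.59% of its stretches of 50 bases with the pseudogene ROCK1P1, which was at 1.13 FPKM in siC, 1.73 in siIGF2BP1 and 2.09 in siSRF on 17 to 48 reads per library, and the part of shared reads in the ROCK1 values was not tested.

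The remaining members did not pass the test. ROCK2 was at 17.46, 16.10 and 16.34 FPKM in siSRF, above all siC libraries (log2 difference 0.25, 0.13 to 0.38, limma adjusted p = 0.0166). PPP1R12A was at 10.14, 9.83 and 11.04 FPKM in siC and at 14.07, 12.75 and 13.42 FPKM in siSRF, and missed the threshold narrowly (log2 difference 0.37, 0.21 to 0.54, limma adjusted p = 0.0101). Both were called by limma-voom, with adjusted p-values of 0.00205 and 3.78e-05, so that this tool called 6 members against 23.4% of all genes. With the GC and length trends removed, ROCK2 was at 0.09 (limma adjusted p = 0.179) and PPP1R12A at 0.19 (limma adjusted p = 0.0714). MYL6 was at 62.03, 58.46 and 62.42 FPKM in siSRF, below all siC libraries (log2 difference -0.17, limma adjusted p = 0.0657, and -0.07 with those trends removed). MYL12A, at 72.26, 71.20 and 65.75 FPKM, and MYL12B, at 131.6, 133.9 and 124.9 FPKM, overlapped with siC, with intervals of the log2 difference from 0.01 to 0.30 and from -0.14 to 0.05.

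**Figure D3:**
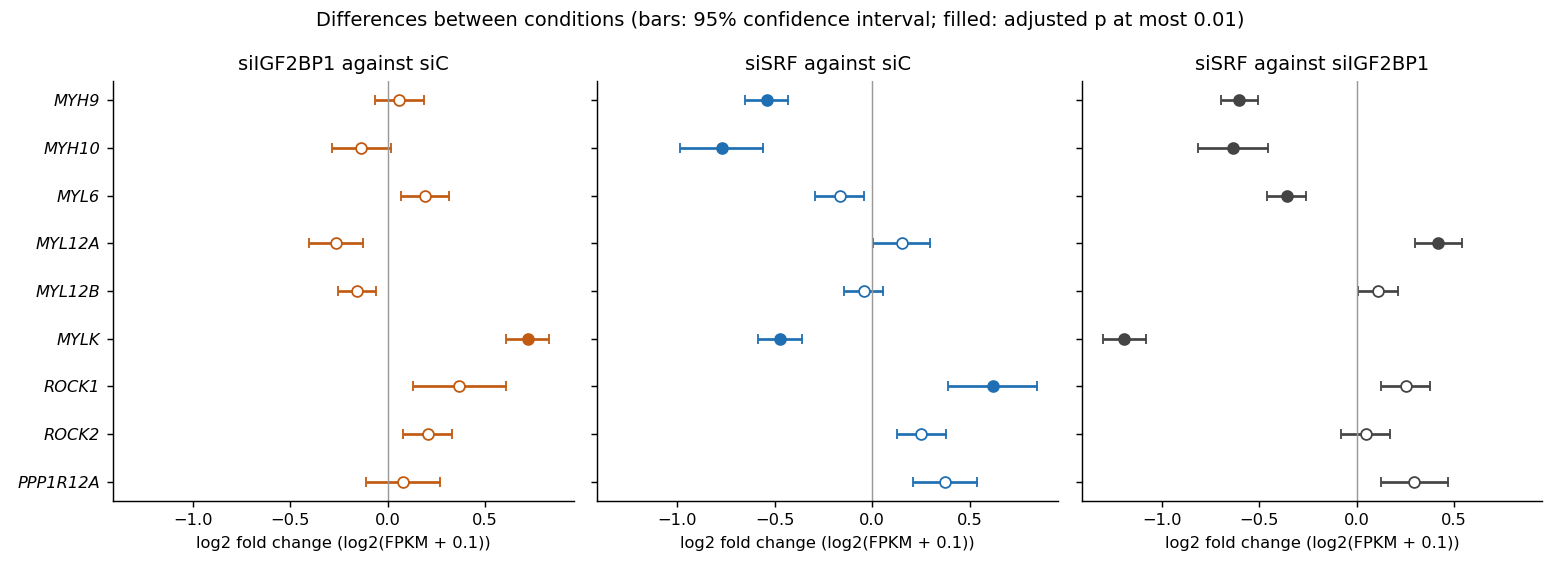
Log2 fold changes of the 9 detected members in the 3 comparisons, with 95% confidence intervals; filled points passed an adjusted p of 0.01. MYLK is at 0.72 in siIGF2BP1 and at -0.47 in siSRF, MYH9 and MYH10 are at -0.54 and -0.77 in siSRF, and both ROCK genes lie to the right of 0 in both knockdowns.

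Between the knockdowns, 5 members were called. SRF mRNA was lowered in both, to 41.3% of siC in siIGF2BP1 and to 10.1% in siSRF. Effects of losing IGF2BP1 and of losing SRF therefore cannot be told apart in siIGF2BP1. Of all 22311 genes tested between siSRF and siIGF2BP1, 8.82% were called lower and 11.2% higher in siSRF, and 43.1% of those that averaged 5 FPKM or more were called in either direction, a share near that of the members. By libraries that do not overlap, 8 members differed, against 46.1% of all genes. MYLK differed most, at 10.55 FPKM ± 0.287 in siSRF against 24.25 FPKM ± 0.785 in siIGF2BP1 (SD, n = 3 each), a 2.29-fold difference (log2 -1.19, -1.30 to -1.08, limma adjusted p = 2.31e-05). Removal of the GC and length trends left a log2 difference of -0.93 (limma adjusted p = 8.21e-05). The heavy chains were lower in siSRF, with log2 differences of -0.60 for MYH9 (limma adjusted p = 0.00013) and -0.63 for MYH10 (limma adjusted p = 0.00122). The light chains split: MYL6 was lower in siSRF, by -0.36 (limma adjusted p = 0.0011), and MYL12A higher, by 0.42 (limma adjusted p = 0.0013). For ROCK1 (0.25, 0.13 to 0.38, limma adjusted p = 0.0116), PPP1R12A (0.30, 0.12 to 0.47, limma adjusted p = 0.0214), MYL12B (0.11, 0.01 to 0.21, limma adjusted p = 0.0976) and ROCK2 (0.05, -0.08 to 0.17, limma adjusted p = 0.543) the difference did not pass. Limma-voom called 7 members, adding ROCK1 and PPP1R12A, against 31.0% of all genes. The interval of ROCK2 holds no difference larger than 0.17, and with the GC and length trends removed its difference was -0.00012.

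Shares between paralogs were compared by exact permutation tests, which cannot go below p = 0.1 with 3 libraries against 3 and so cannot pass 0.05. MYH9 made up 89.68% ± 0.501 (SD, n = 3) of the heavy chain FPKM in siC, 90.88% ± 0.357 in siIGF2BP1 and 91.09% ± 0.669 in siSRF. The siC libraries lay below those of either knockdown (exact p = 0.1 for each, 0.129 after adjustment over the 9 shares compared), and the knockdowns overlapped (exact p = 0.6). The balance of the heavy chains thus differed from siC by 1.2 and 1.41 percentage points, while their sum was 142.2 FPKM ± 6.38 in siC, 146.2 ± 4.82 in siIGF2BP1 and 96.13 ± 2.34 in siSRF, where it lay below all siC libraries (exact p = 0.1).

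ROCK1 made up 40.61% ± 2.53 of the ROCK FPKM in siC, 43.35% ± 1.38 in siIGF2BP1 and 46.89% ± 1.53 in siSRF. The siSRF libraries lay above all others (exact p = 0.1 against each group), and siIGF2BP1 overlapped with siC (exact p = 0.3). The sum of ROCK1 and ROCK2 was 23.52 FPKM ± 1.53 in siC, 28.42 ± 0.847 in siIGF2BP1 and 31.31 ± 0.612 in siSRF, with no overlap between any of the groups (exact p = 0.1 each, 0.129 after adjustment over the 9 sums compared). Because MYL9 had no reads, the share of MYL12A in MYL12A and MYL12B was added after the values were seen. It was 31.86% ± 1.45 in siC, 30.19% ± 0.389 in siIGF2BP1 and 34.88% ± 0.5 in siSRF, again without overlap (exact p = 0.1 each). At the MANE Select length the shares averaged 51.11%, 49.17% and 54.5%, so whether MYL12A or MYL12B is the more abundant depends on the length used. The sum of both light chains was 196.9 FPKM ± 3.27 in siC, 172.6 ± 5.45 in siIGF2BP1, below all siC libraries, and 199.9 ± 8.01 in siSRF, which overlapped with siC.

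**Figure D4:**
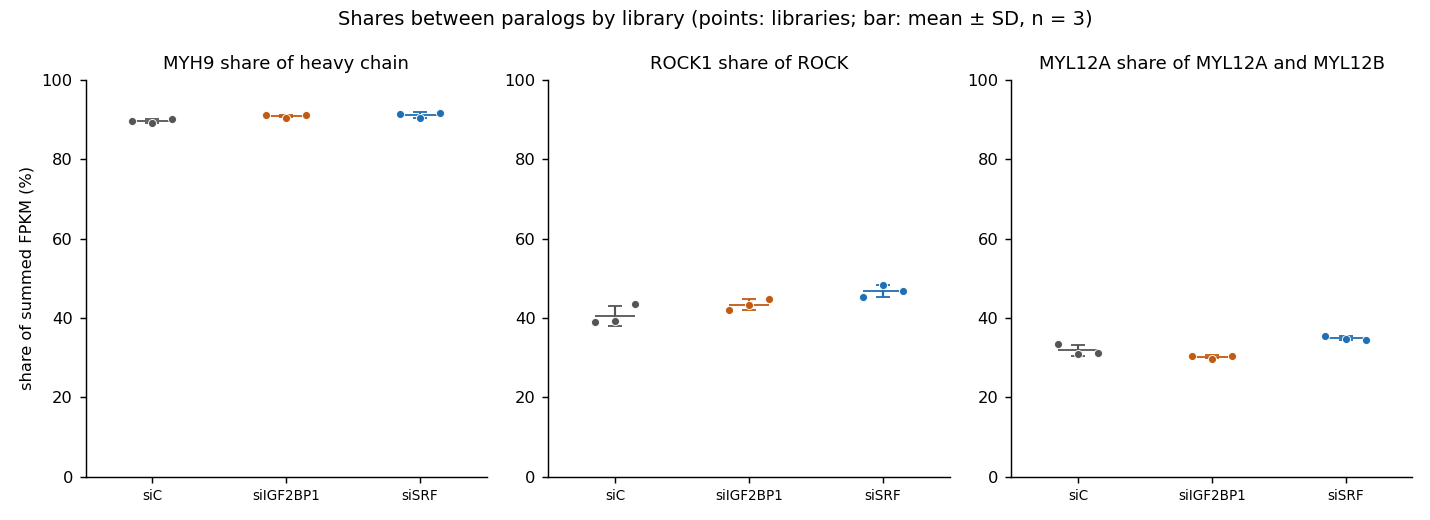
Shares in percent of summed FPKM for MYH9 in MYH9 and MYH10, ROCK1 in ROCK1 and ROCK2, and MYL12A in MYL12A and MYL12B, by library, on axes from 0 to 100; bars are the mean and SD of 3 libraries. The MYH9 share stays between 89.22% and 91.59% in all 9 libraries, and the ROCK1 share averages 40.61% in siC and 46.89% in siSRF. All shares are at the deposited gene lengths, under which MYL12A averages 31.86% in siC, against 51.11% at the MANE Select length.

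The promoters of the members were searched for the CArG box, the element that SRF binds, since SRF was depleted. In RefSeq windows from 250 bases before to 50 bases after an annotated start (GRCh38.p14), 9 members had 17 windows; MYL9 had none. The element, searched on both strands, was found in 2 of them, 1 of MYLK and 1 of ROCK2, and in 1.293% of all 35116 windows. Both are shown with the element in capitals, 5′ to 3′ on the minus strand.
MYLK, chr3:123620499-123620798: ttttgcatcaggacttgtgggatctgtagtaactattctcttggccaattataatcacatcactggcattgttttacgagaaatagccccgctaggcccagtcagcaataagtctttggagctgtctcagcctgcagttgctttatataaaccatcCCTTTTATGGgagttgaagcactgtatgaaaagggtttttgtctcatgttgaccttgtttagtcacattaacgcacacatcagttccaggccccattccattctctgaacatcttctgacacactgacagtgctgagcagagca
ROCK2, chr2:11345388-11345687: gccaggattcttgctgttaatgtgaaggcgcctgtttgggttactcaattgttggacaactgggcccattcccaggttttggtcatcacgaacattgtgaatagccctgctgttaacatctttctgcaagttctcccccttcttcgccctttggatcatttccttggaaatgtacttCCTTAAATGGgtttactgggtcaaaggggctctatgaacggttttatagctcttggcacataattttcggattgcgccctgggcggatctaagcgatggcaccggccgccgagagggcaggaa
In the MYLK window, the only one of that gene in the table, the element lies at -94 to -85 from an internal start near the 3′ end of the gene, which is that of telokin. In the ROCK2 window, 1 of 2 of that gene, it lies at -73 to -64. MYLK was called lower in siSRF and ROCK2 was not called, and MYH9 and MYH10, which were called lower, had no match in their 1 window each. A match is a description of the sequence and no evidence of binding, and no match says only that these letters are not in the window.

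The other genes of the pathway were described by 7 lists of 72 genes. Of 50 tested upon IGF2BP1 depletion, 6 fell and 5 rose, and of 49 tested upon SRF depletion, 14 fell and 6 rose. Here and in each list below, such counts are of genes called. Of all genes tested, 3.57% were called lower and 3.55% higher in siIGF2BP1, and 5.34% and 6.85% in siSRF. Among those that averaged 5 FPKM or more, 16.6% were called in either direction in siIGF2BP1 and 28.2% in siSRF. The counts of the lists are descriptions beside these shares. Of the other myosin II chains, 3 of 5 were tested, since MYH11 and MYH14 were at or near 0. MYO18A, an unconventional relative of the heavy chains, fell in siSRF from 3.49 FPKM ± 0.0349 to 1.93 ± 0.193 (log2 difference -0.83, limma adjusted p = 0.00409). In siIGF2BP1 none was called, and the most abundant, the light chain MYL6B, was at 15.78 FPKM in siC and 18.93 FPKM in siIGF2BP1 (limma adjusted p = 0.05). The median log2 fold change of these chains was 0.05 in siIGF2BP1 and -0.39 in siSRF. Of the 13 sarcomeric myosin chains, 1 was tested in each knockdown, MYH3, at 0.10 FPKM in siC, 0.42 in siIGF2BP1 and 0.12 in siSRF, and it was not called (limma adjusted p = 0.0507 and 0.912).

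Among the 13 other kinases of the regulatory light chain, 1 rose in siIGF2BP1 and 2 fell in siSRF, of 9 and 8 tested. CDC42BPA, an MRCK kinase driven by CDC42, rose in siIGF2BP1 from 8.30 to 11.33 FPKM (log2 0.44, limma adjusted p = 0.00793). CIT, citron kinase of the cleavage furrow, fell in siSRF from 11.56 to 7.40 FPKM (log2 -0.64, limma adjusted p = 0.00125), and CDC42BPB, the other abundant MRCK kinase, from 12.07 to 9.12 FPKM (log2 -0.40, limma adjusted p = 0.00825). DAPK1 and MYLK3 were below the filter. The median log2 fold change was -0.07 in siIGF2BP1 and 0.11 in siSRF.

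Of the other subunits and inhibitors of the myosin phosphatase, 7 were tested, of which 2 rose and 1 fell in siSRF and none was called in siIGF2BP1. The catalytic subunits PPP1CB and PPP1CC rose in siSRF. PPP1CB was at 45.25, 40.39 and 46.35 FPKM in siC and at 61.17, 57.90 and 57.76 FPKM in siSRF (log2 0.42, limma adjusted p = 0.00481), and PPP1CC went from 25.3 to 34.5 FPKM (log2 0.45, limma adjusted p = 0.00224). PPP1R12C, a targeting subunit related to PPP1R12A, fell from 8.27 to 5.23 FPKM (log2 -0.66, limma adjusted p = 0.00511). In siIGF2BP1, PPP1CB was at 55.81, 64.69 and 63.31 FPKM, also above all siC libraries, and missed the threshold narrowly (log2 0.48, limma adjusted p = 0.0107). Its difference between the knockdowns was -0.05 on the log2 scale (limma adjusted p = 0.575). PPP1R14B, the most abundant inhibitor gene, was in siIGF2BP1 at 158.6 FPKM against 182.5 FPKM in siC (limma adjusted p = 0.0723). PPP1R14A and PPP1R14C had no reads.

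The RHOA-related GTPases and their regulators held RND3, whose difference between the knockdowns was the largest of any listed gene tested. Of 14 tested, 4 fell and 1 rose in siIGF2BP1, and 3 fell and 3 rose in siSRF. RND3 is an atypical GTPase of that family that inhibits ROCK1, and it was at 36.6, 36.4 and 40.2 FPKM in siC, at 17.2, 18.8 and 17.8 FPKM in siIGF2BP1 and at 72.2, 70.4 and 69.2 FPKM in siSRF. It fell in the one and rose in the other without any overlap (log2 -1.07, limma adjusted p = 0.000338, and 0.90, limma adjusted p = 0.000329). RHOB, a GTPase that activates ROCK, went the other way, from 12.01 FPKM in siC to 18.3 FPKM in siIGF2BP1 (log2 0.60, limma adjusted p = 0.00439) and to 7.29 FPKM in siSRF (log2 -0.71, limma adjusted p = 0.000633). The differences between the knockdowns were 1.97 for RND3 and -1.31 for RHOB on the log2 scale (limma adjusted p = 8.39e-06 and 7.56e-05). The GDP dissociation inhibitor ARHGDIA fell in both knockdowns (log2 -0.79 in siIGF2BP1 and -0.43 in siSRF, limma adjusted p = 0.00375 and 0.00534), as did the exchange factor ARHGEF1 (log2 -0.49 and -0.43, limma adjusted p = 0.00428 and 0.00268), which was named after its values were seen. In siIGF2BP1, the exchange factor ARHGEF2 also fell (log2 -0.63, limma adjusted p = 0.00134). In siSRF, the exchange factor ECT2 of cytokinesis rose (log2 0.59, limma adjusted p = 0.00471).

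Of the 8 other ROCK substrates, 2 fell and 1 rose in siIGF2BP1 and 3 fell in siSRF. MARCKS, a membrane-bound actin crosslinker, rose in siIGF2BP1 from 49.8 to 83.5 FPKM (log2 0.75, limma adjusted p = 0.000518) and fell in siSRF to 38.55 FPKM (log2 -0.37, limma adjusted p = 0.00615). LIMK1, which phosphorylates cofilin, and EZR, which links actin to the membrane, fell in siIGF2BP1 (log2 -0.77 and -0.59, limma adjusted p = 0.00495 and 0.00271). The adducins ADD1 and ADD3 fell in siSRF (log2 -0.32 and -1.02, limma adjusted p = 0.00269 and 0.00185).

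Among the 8 myosin II assembly and calcium factors, 2 rose and none fell in siIGF2BP1, and 4 fell and 1 rose in siSRF. CALM2, whose calmodulin product activates MYLK, rose in both knockdowns, from 70.5 to 103.3 and 104.7 FPKM (log2 0.55 and 0.57, limma adjusted p = 0.00362 and 0.00178). CALM3, which encodes the same protein, fell in siSRF from 68.3 to 42.45 FPKM (log2 -0.69, limma adjusted p = 0.000502). SVIL, a myosin II and actin binding protein, rose in siIGF2BP1 from 9.15 to 16.9 FPKM (log2 0.87, limma adjusted p = 0.000391) and was at 6.29 FPKM in siSRF (log2 -0.53, limma adjusted p = 0.00157). LLGL1 fell in siSRF from 12.3 to 7.07 FPKM (log2 -0.79, limma adjusted p = 0.00471). VIM, which is also on the list of mesenchymal markers, is among the 4 that fell.

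**Figure D5:**
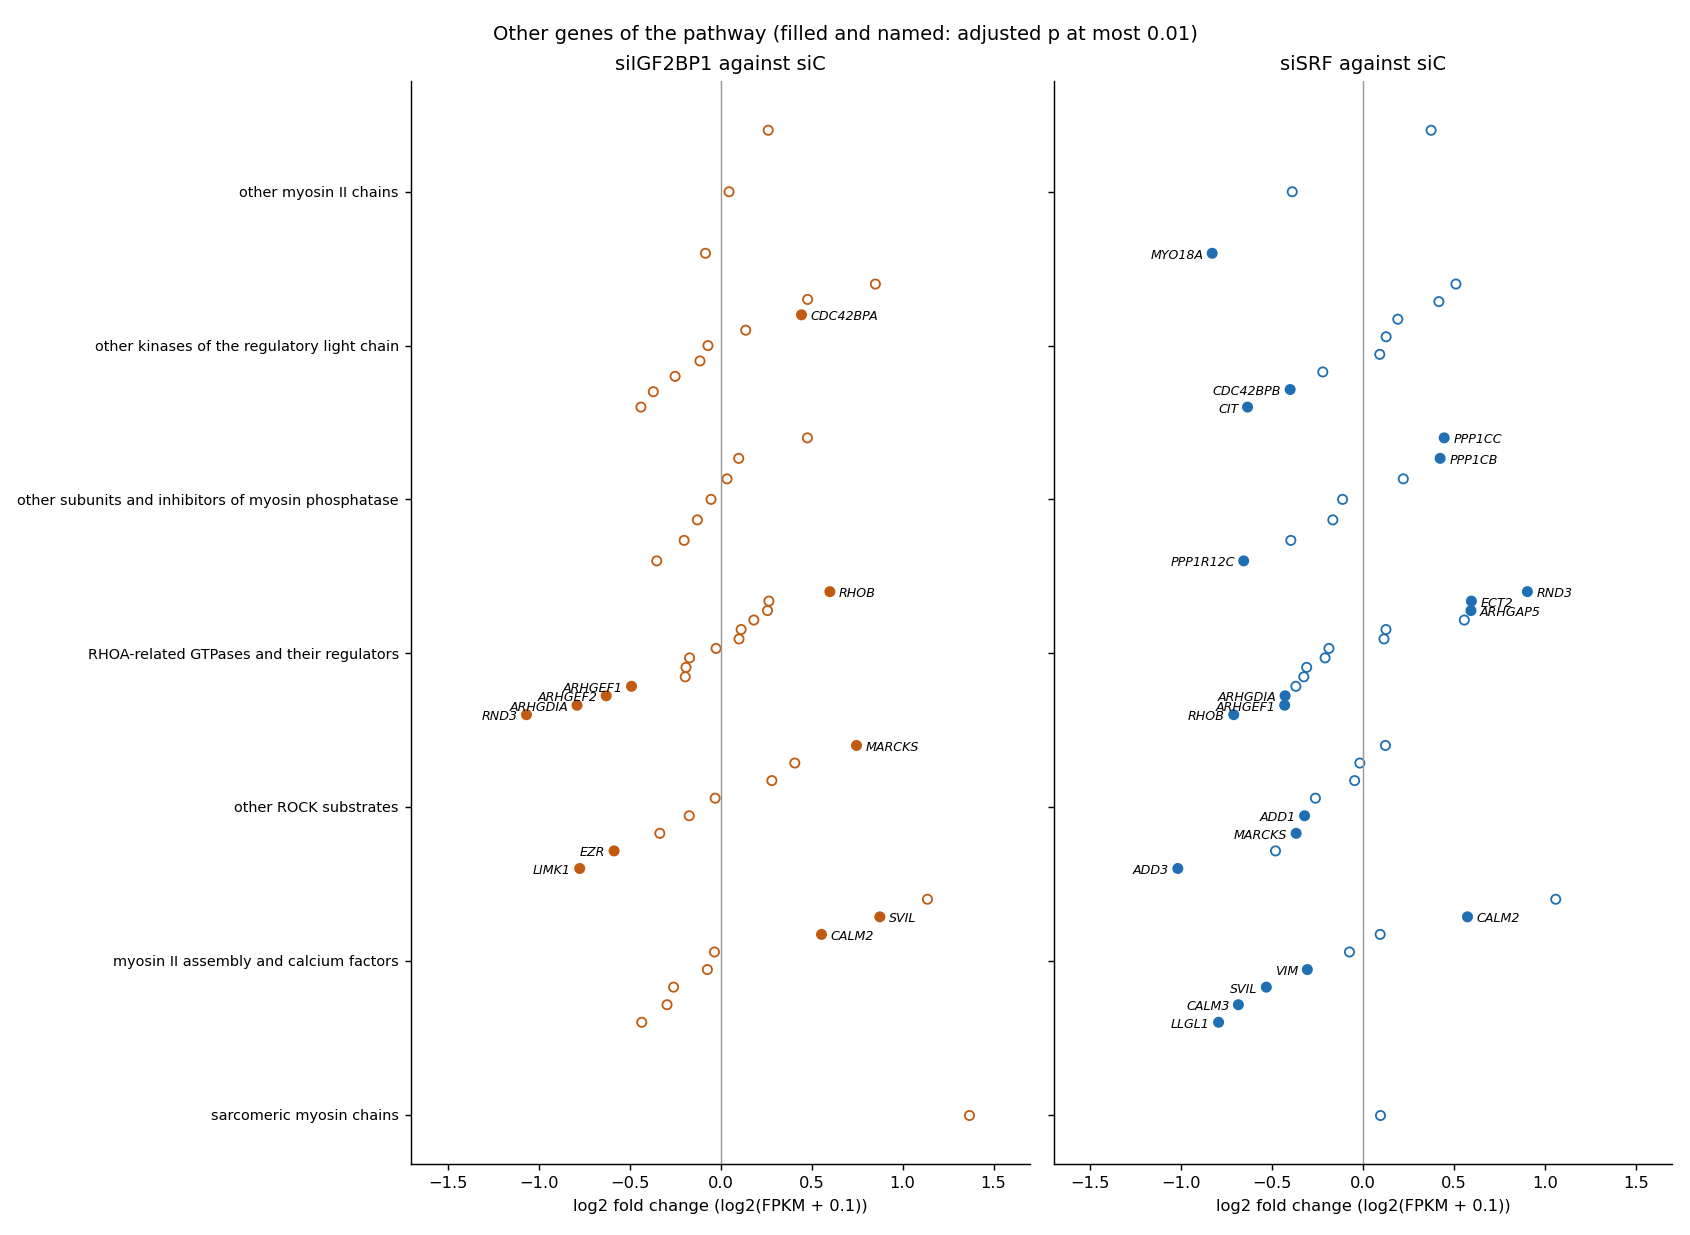
Log2 fold changes against siC of the tested genes of the 7 lists, with siIGF2BP1 on the left and siSRF on the right; filled and named points passed an adjusted p of 0.01, and points are spread upwards within a list by their value. RND3 and RHOB stand on opposite sides of 0 in the knockdowns, as do MARCKS and SVIL.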

How the data were processed

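Total RNA-seq of ES-2 cells was used (3 conditions, 3 libraries each). The authors clipped reads with Cutadapt 1.14, aligned them with HISAT2 2.1.0 to hg38, counted them with featureCounts 1.5.3, and compared groups with edgeR 3.18.1 after TMM normalization. They deposited FPKM values per gene and library, with gene lengths, in 2 tables whose siC values are identical. The log fold change, p-value and FDR columns were not used. The product of FPKM and length gave whole reads (within 0.01 of a read) for 100% of values, 6421764 to 9416175 per library. These limit precision by counting error.

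The sample labels gave the groups. Limma 3.58.1 (lmFit, eBayes with a trend, R 4.3.3) was fitted to log2(FPKM + 0.1) of the libraries compared, for genes that averaged 0.1 FPKM or more, with Benjamini-Hochberg adjustment over all of them; calls are at 0.01, the threshold of the study. Shares were compared by two-sided exact permutation tests. Alternatives were pseudocounts of 1 and 0.01, no filter or 1 FPKM, median-ratio rescaling, limma-voom on recovered reads, a replicate block, 9 libraries in 1 fit, robust eBayes, a threshold of 0.05, GC and length trends taken out, and leaving out each library. Limma-voom with the block, the MANE Select length and the MYL12A share were added after the values were seen. In simulated data with 3000 genes changed 2-fold between siSRF and siC (21314 genes), limma-trend recovered 73.4% of them, and 94.88% at 5 FPKM or more, with 46 false calls, 3 of which had at least 10 reads; limma-voom recovered 83.07%, with 20 false calls, 14 of them with at least 10 reads. With 200 genes changed (21331 genes), limma-trend recovered 51.5%, and 82.05% at 5 FPKM or more, with 19 false calls, and limma-voom 80%, with 1. The simulated reads had the same fixed dispersion for every gene, which was not estimated from these libraries. Genes with a wider spread may therefore be recovered less often than in the simulation. Against siC the members changed 1.03- to 1.71-fold, less than the simulated 2-fold, so recovery of changes of such size was not measured. Coordinates are from GENCODE 44, a later annotation than the authors counted on, and promoters from RefSeq (GRCh38.p14).

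The members and lists were chosen with earlier results of these data known, so no list was tested. Named were the 10 members, IGF2BP1 and SRF, and per list and knockdown the 3 called genes of at least 1 FPKM with the largest change, or else the most abundant gene. 1 gene of a list is not reported here and was left out of its counts.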

Additional observations from a re-analysis of the deposited data

Results flagged for a closer look

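In 4 members the effects of the knockdowns, each against siC, had opposite signs. For each of them the direct comparison of siSRF with siIGF2BP1, in which the shared siC libraries cancel, was called by limma-trend. Signs were taken from the estimates, whether or not these passed the test. The share of all genes that meet this rule was not taken, so the count is a description only. In the direct comparison, 43.1% of genes that averaged 5 FPKM or more were called. MYLK was at 0.72 in siIGF2BP1 and -0.47 in siSRF on the log2 scale, both called, and the difference of siSRF from siIGF2BP1 was -1.19, with all 3 siIGF2BP1 libraries above siC and all 3 siSRF libraries below it. MYH9 differed by -0.60, with a called decrease in siSRF alone and an interval across 0 in siIGF2BP1. MYL6 differed by -0.36 and MYL12A by 0.42, although neither passed the test against siC in either knockdown. CDH5, the endothelial marker present in these cells, was also above all siC libraries in siIGF2BP1, and overlapped with them in siSRF, and its part in these differences was not tested. SRF mRNA was lowered in siIGF2BP1 too, so that group does not show the loss of IGF2BP1 alone.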

How the results depend on the processing

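Of the 459 alternative values of the log2 fold changes of the 9 detected members in 3 comparisons, 427 stayed on the same side of the threshold, 12 lost the call, 20 gained one, and no called value reversed. With GC content and length trends taken out, uncalled PPP1R12A in siIGF2BP1 and ROCK2 between the knockdowns changed sign. In siIGF2BP1, where 1 member was called, 4 were called at a threshold of 0.05, 3 by limma-voom, 2 with the GC and length trends taken out, and 1 with any library left out. In siSRF, where 4 were called, 2 to 4 were called with 1 library left out, 2 of them without the first or the third siSRF library, which lost ROCK1 and MYH10. Between the knockdowns, where 5 were called, the alternatives gave 4 to 7. The cause of these shifts was not tested.

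Replicate numbers come from the labels, and nothing states whether they pair the samples. Same-numbered libraries correlated between -0.0668 and 0.0177 in their deviations from the group means. These correlations show no shared deviation across genes but cannot settle whether the samples were paired. With the replicate block, limma-trend called 0 members in siIGF2BP1 (MYLK at an adjusted p of 0.0135), 2 in siSRF (MYH9 and MYH10) and 4 between the knockdowns, and limma-voom with the block called 3, 6 and 7. Exact sign flips within the pairing, which cannot go below 0.25, gave p = 0.25 for the shares of MYH9 and ROCK1 (0.5 for MYH9 between the knockdowns); other lengths moved neither share by more than the spread between replicates, while the MYL12A share between the knockdowns went from 4.69 to 5.33 percentage points. Leaving out 1 library moved 3 share differences by over 1.5 times: MYL12A in siIGF2BP1 went from -1.67 to -0.835 percentage points without the first siC library, ROCK1 in siIGF2BP1 from 2.74 to 4.2 without the third siC library, and MYH9 between the knockdowns from 0.211 to between -0.0417 (without the third siSRF library) and 0.59 (without the second), by less than 1.5 times only without the third siIGF2BP1 library. About 659 to 1532 reads stood behind ROCK1, and MYL9, with 0 reads, could not be tested.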
